A study of Mus musculus with 6 samples.

Results

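The polycystin family of mouse testis was followed in atrazine-treated and control animals. It holds 8 genes, Pkd1, Pkd1l1, Pkd1l2, Pkd1l3, Pkdrej, Pkd2, Pkd2l1 and Pkd2l2, and its members were taken by gene symbol. Every probe set whose only symbol in the array annotation is one of these genes was used. There was 1 such probe set for each of 7 genes and none for Pkd2, which was not analysed here, out of 22180 genes with a probe set of their own among 41345 probe sets. Total RNA of whole testis, from males of the C57BL/6J strain, was hybridised to 6 arrays (Affymetrix mouse gene 2.0 st). ATZ-treated males received the herbicide atrazine (ATZ) in drinking water at 100 mg/l, or nearly 25 mg/kg/day, for 3 weeks, followed by 2 weeks without it, and gave 3 arrays. Control males gave the other 3 arrays, and all testes were taken at an age of 10 weeks. Whether each sample is 1 animal or a pool is not given by the labels, so p-values measure the spread between these samples only. The deposited values are log2 intensities after robust multi-array average (RMA), which corrects background, brings the arrays to one distribution and summarizes the probes of a probe set.

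Polycystins are membrane proteins of cilia and of other membranes, and they fall into a pair of groups. The polycystin-1 group (Pkd1, Pkd1l1, Pkd1l2, Pkd1l3, Pkdrej) consists of large proteins with a long extracellular part and a proteolysis site like that of adhesion G protein-coupled receptors. The polycystin-2 group (Pkd2, Pkd2l1, Pkd2l2) consists of cation channel subunits of the transient receptor potential (TRP) superfamily, and proteins of both groups join in complexes. Mutations of PKD1 or PKD2 cause dominant polycystic kidney disease in humans. Pkdrej is related to the sea urchin sperm receptor for egg jelly and is expressed in male germ cells, and Pkd2l2 mRNA is prominent in mouse testis, so the family joins genes of germ cells with genes better known from kidney, embryonic node, taste cells and neurons.

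None of the 7 measured genes passed a threshold of p between ATZ-treated and control testes, and the groups overlapped for each of them. Log2 changes, given throughout as ATZ minus control, lay between -0.14 for Pkd1l3 and 0.20 for Pkd1l2, with 3 genes higher and 4 lower in ATZ-treated testes and a median of -0.027, against a median of -0.0033 over all genes. The members' median turned positive when ATZ replicate 2 (0.012) was left out, and likewise for control replicate 2 (0.028) and control replicate 3 (0.020). It was -0.078 without ATZ replicate 3. With limma, 0 of the 7 had an adjusted p under 0.05, where 0% of all 22180 genes did, and each member's adjusted p was 0.998. At an unadjusted p under 0.05 the count was 0 of 7, where 2.39% of all genes passed, and the smallest unadjusted p of a member was 0.171. The ATZ and control arrays overlapped for all 7, whereas 6.91% of all genes had groups without overlap. From the 5th to the 95th percentile, changes of all genes ran from -0.20 to 0.23, and the 7 members lay inside that range. With 3 arrays against 3, an exact permutation test cannot give a two-sided p below 0.1.

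**Figure D1:**
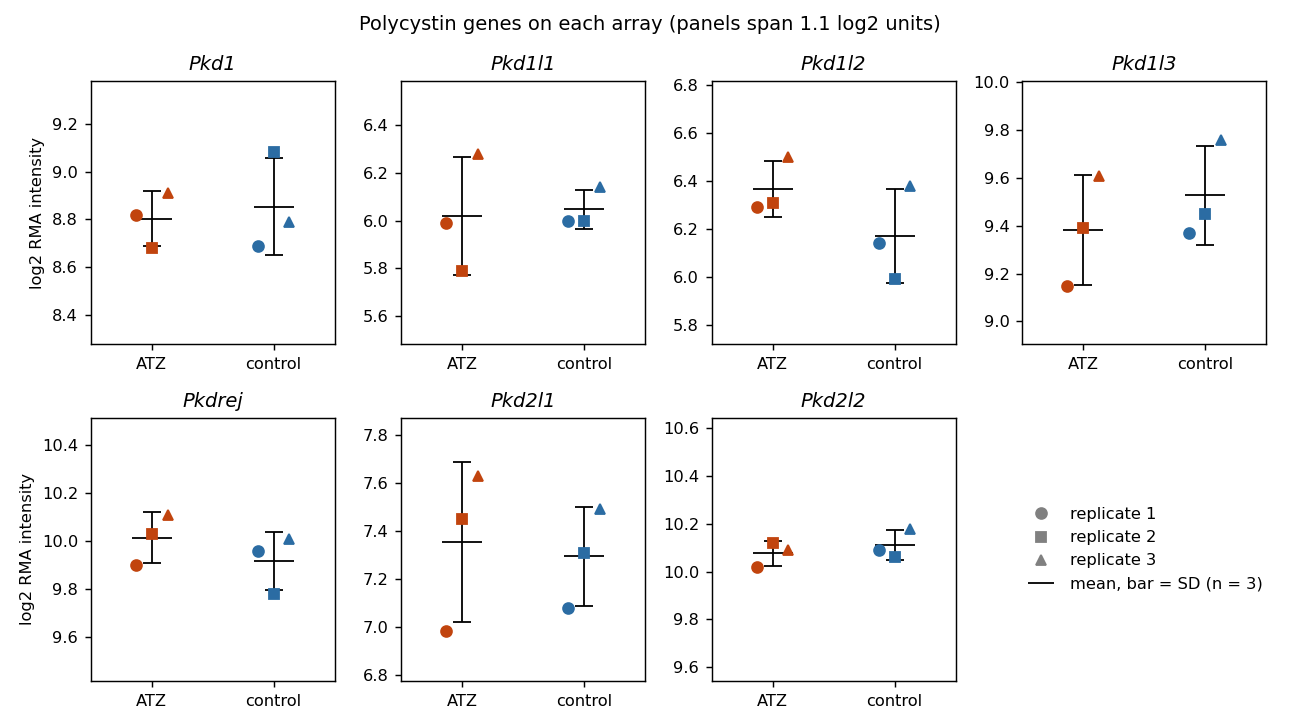
Log2 RMA intensity of the 7 measured polycystin genes on each ATZ array (left) and each control array (right), with group means and SD (n = 3 each). The groups overlap in every panel, and Pkd2l2 has the tightest values, all between 10.02 and 10.18.

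Pkd1 encodes polycystin-1, the large receptor-like partner of the polycystin-2 channel. Its annotated probe set read 8.82, 8.68 and 8.91 in ATZ-treated testes, against 8.69, 9.08 and 8.79 in control testes. The highest value was that of control replicate 2, and the other controls lay within the ATZ range. Group means were 8.80 ± 0.12 in ATZ-treated and 8.85 ± 0.20 in control testes (SD, n = 3 each). The log2 change of Pkd1 was -0.050 (standard error 0.13, 95% interval -0.36 to 0.26), a fold of 0.966. Leaving out control replicate 2 turned it to 0.063, and leaving out ATZ replicate 2 turned it to 0.012.

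A second probe set carries the name of Pkd1 in the study, which listed it among genes differing between these same arrays. It has no gene symbol in the annotation used here, so its assignment could not be checked, and it was selected on these samples, so its values are a description. It read 5.83, 6.70 and 6.29 in ATZ-treated testes, against 6.87, 6.71 and 6.96 in control testes. All ATZ arrays were below all controls, but ATZ replicate 2 and control replicate 2 stood 0.01 apart by their printed values. The means were 6.27 ± 0.44 and 6.85 ± 0.13 in ATZ-treated and control testes (SD, n = 3 each). Its log2 change of -0.57 (standard error 0.22, 95% interval -1.10 to -0.047) is a fold of 0.672. By limma the unadjusted p was 0.0371 and the adjusted p was 0.998. Without ATZ replicate 1, the lowest array, the change was -0.35. Leaving out 1 array at a time gave unadjusted p-values in limma from 0.00424 (without ATZ replicate 2) to 0.102 (without control replicate 3), and only the lowest of these 6 was under 0.05.

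This probe set belongs to a run of 5333 probe sets without symbols at the lowest identifiers of the array. In this run the median log2 intensity was 5.03 and the median within-group SD 0.387, against 7.46 and 0.132 among the 22180 genes. A fold change of 1.5 or more in the lower direction with an unadjusted p under 0.05, after the thresholds of the study, was met by 2.34% of the run and by 0.0631% of the genes. Neither the listed nor the annotated probe set of Pkd1 met it in the main fit, the listed one because its fold of 0.672 was short of the limit. The listed one did meet it in some alternatives described below. Its log2 change was -0.657 with array weights, -0.605 with quantile normalization again and -0.603 with centred arrays. On ATZ replicate 1 the listed probe set was 0.73 below its own mean over the 6 arrays, while the annotated one was 0.0083 below its mean, and on control replicate 2 they stood 0.15 and 0.25 above their means. The arrays that were low or high thus differed between the probe sets, and whether both measure Pkd1 mRNA was not tested.

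**Figure D2:**
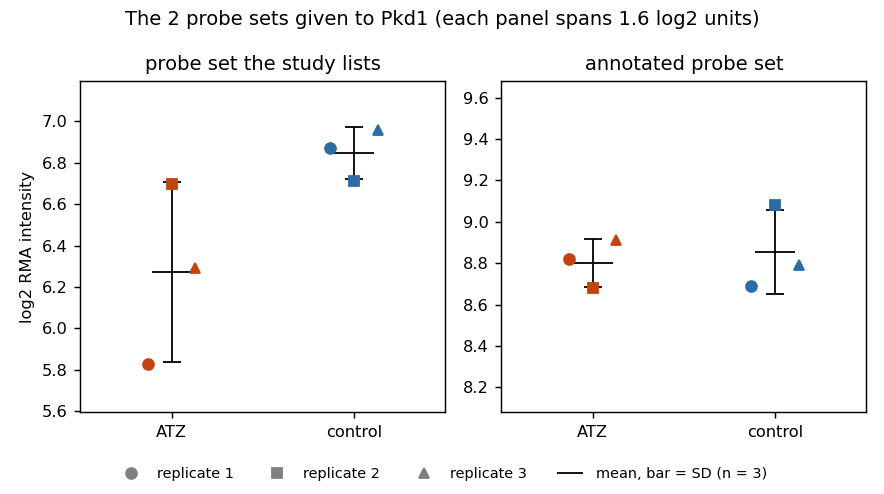
Log2 RMA intensity on each array at the probe set that the study lists for Pkd1 (left panel) and at the one annotated with Pkd1 (right panel), ATZ arrays left of control arrays, with means and SD (n = 3 each). The listed probe set spans 1.13 log2 units over the 6 arrays and the annotated one 0.40.

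Promoter windows of 300 bases from RefSeq (build GRCm38.p6), most of them upstream of a start site, are described for 5 of the 8 genes. No window was found for Pkdrej and Pkd2l1, and that of Pkd2l2 is not reported here. The 2 below are shown because they had the highest (Pkd1) and the lowest (Pkd1l3) content of G and C among the 5 windows described. Capitals mark exact matches, on either strand, to the GC box (GGGCGG or CCGCCC) and to the half-site of the cAMP response element (TGACG or CGTCA), the element bound by the germ cell regulator CREM. No capitals of one motif overlap those of the other. Pkd1 is at chr17:24549700-24549999 on the plus strand and Pkd1l3 at chr8:109613984-109614283 on the plus strand.
Pkd1: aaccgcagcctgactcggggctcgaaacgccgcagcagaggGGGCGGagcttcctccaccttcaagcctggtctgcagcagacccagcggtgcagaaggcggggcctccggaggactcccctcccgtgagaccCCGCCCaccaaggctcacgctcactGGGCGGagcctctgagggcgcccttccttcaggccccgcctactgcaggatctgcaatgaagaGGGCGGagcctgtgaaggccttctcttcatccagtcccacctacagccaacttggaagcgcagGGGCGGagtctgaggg
Pkd1l3: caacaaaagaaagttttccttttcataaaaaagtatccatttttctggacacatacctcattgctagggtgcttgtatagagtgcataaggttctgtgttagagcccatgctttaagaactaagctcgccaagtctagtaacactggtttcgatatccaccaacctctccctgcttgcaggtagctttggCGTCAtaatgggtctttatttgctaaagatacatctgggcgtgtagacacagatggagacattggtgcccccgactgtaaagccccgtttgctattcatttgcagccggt
The Pkd1 promoter held 66.7% G and C, against a median of 52.7% over 32851 promoters, and 5 GC boxes. At least 1 GC box was present in 35.7% of promoters, and 5 or more in 2.71%. The Pkd1l3 promoter held 44% G and C, no GC box and 1 half-site of the cAMP response element, which 20.8% of promoters also hold. Neither motif was found in the windows of Pkd1l1, Pkd1l2 and Pkd2. These matches describe the letters of the windows and were not tied to the array values.

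Among the other genes of the polycystin-1 group, Pkdrej is the germ cell member, whose protein lies on the sperm head. It read 9.90, 10.03 and 10.11 in ATZ-treated testes, against 9.96, 9.78 and 10.01 in control testes. The upper ATZ arrays exceeded every control, but ATZ replicate 1 fell among the controls. Means were 10.01 ± 0.11 in ATZ-treated and 9.92 ± 0.12 in control testes (SD, n = 3 each). The log2 change of Pkdrej was 0.097 (standard error 0.10, 95% interval -0.15 to 0.35). Without ATZ replicate 1 it was 0.15 and the groups no longer overlapped, but the share of all genes was not counted in that setting. The change was smaller without control replicate 2 (0.028) and without ATZ replicate 3 (0.048). The interval in folds ran from 0.898 to 1.27.

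Pkd1l3, which with Pkd2l1 forms an acid-responsive channel of mouse taste cells, read 9.15, 9.39 and 9.61 in ATZ-treated testes, against 9.37, 9.45 and 9.76 in control testes. ATZ replicate 1 was the lowest array and control replicate 3 the highest, with the others interleaved. Means were 9.38 ± 0.23 and 9.53 ± 0.21 (SD, n = 3 each) in ATZ-treated and control testes. The log2 change of Pkd1l3 was -0.14 (standard error 0.16, 95% interval -0.53 to 0.24), the lowest of the family with all arrays. It was -0.027 without ATZ replicate 1 and also without control replicate 3, and -0.26 without ATZ replicate 3.

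Pkd1l2 had the largest change of the 7 in size. This gene of the polycystin-1 group read 6.29, 6.31 and 6.50 in ATZ-treated testes, against 6.14, 5.99 and 6.38 in control testes. Control replicate 3 was above the lower ATZ arrays, so the groups overlapped. The means were 6.37 ± 0.12 in ATZ-treated and 6.17 ± 0.20 in control testes (SD, n = 3 each). Its log2 change was 0.20 (standard error 0.13, 95% interval -0.11 to 0.50), and 12.9% of all genes had a change at least this large in either direction. Without control replicate 3 the change was 0.30, with an unadjusted p of 0.0469 from limma and no overlap, and without control replicate 2 it was 0.11. In the setting without control replicate 3, 914 of all 22180 genes had an unadjusted p under 0.05, against 530 with all arrays. Pkd1l1, which acts with Pkd2 in cilia of the embryonic node that set the left-right axis, read 5.99, 5.79 and 6.28 in ATZ-treated testes, against 6.00, 6.00 and 6.14 in control testes. The ATZ arrays lay on both sides of the controls, and without ATZ replicate 3 the groups no longer overlapped. For Pkd1l2 and Pkd1l1 too, the share of all genes without overlap was not counted with an array left out. The change of Pkd1l1 was -0.027 (standard error 0.14, 95% interval -0.36 to 0.31), and leaving out 1 array gave -0.16 (ATZ replicate 3), 0.088 (ATZ replicate 2) or 0.020 (control replicate 3). Pkd1l2 and Pkd1l1 had means of 6.27 and 6.03 over the 6 arrays, below the array medians of all probe sets (6.6 to 6.69), and the values give no detection call.

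In the polycystin-2 group, Pkd2l2, the channel subunit with prominent mRNA in testis, read 10.02, 10.12 and 10.09 in ATZ-treated testes, against 10.09, 10.06 and 10.18 in control testes. These 6 values spanned 0.16 log2 units, and the groups overlapped. Means were 10.08 ± 0.051 in ATZ-treated and 10.11 ± 0.062 in control testes (SD, n = 3 each). The log2 change of Pkd2l2 was -0.033 (standard error 0.083, 95% interval -0.23 to 0.17), the narrowest interval of the family. In folds this interval ran from 0.850 to 1.12. The SD of Pkd2l2 within groups was 0.0572, and 90.1% of all genes had one at least as large.

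Pkd2l1, a cation channel of neurons that touch the cerebrospinal fluid, was the most variable member. It read 6.98, 7.45 and 7.63 in ATZ-treated testes, against 7.08, 7.31 and 7.49 in control testes. The ATZ range enclosed the control range. Means were 7.35 ± 0.34 in ATZ-treated and 7.29 ± 0.21 in control testes (SD, n = 3 each). The log2 change of Pkd2l1 was 0.060 (standard error 0.19, 95% interval -0.41 to 0.53), which was 0.25 without ATZ replicate 1 and -0.078 without ATZ replicate 3. Its SD within groups was 0.278, and 8.27% of genes had one at least as large, while the median was 0.165 over the 7 members and 0.132 over all genes.

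**Figure D3:**
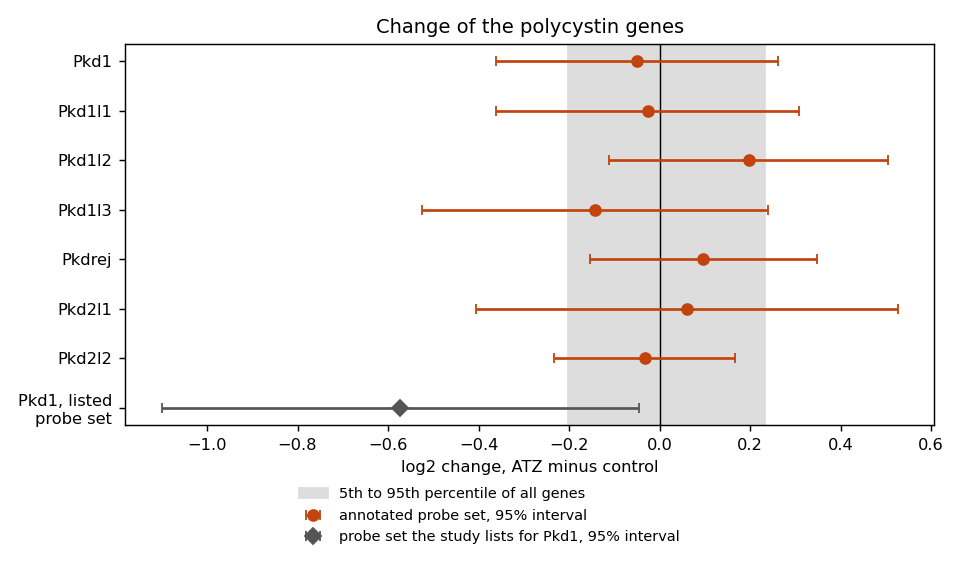
Log2 change (ATZ minus control) of the 7 annotated probe sets and of the probe set that the study lists for Pkd1, with 95% intervals from limma, beside the range of all genes from the 5th to the 95th percentile (grey). The 7 annotated intervals include 0, and the listed probe set stands at -0.57.

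Within both groups the members shared a pattern between arrays. Of the 3 ATZ arrays, replicate 3 gave the highest value for 6 of 7 members (not for Pkd2l2), against 32.7% of all genes. Of the 3 control arrays, replicate 3 did so for 6 of 7 (not for Pkd1), against 30.7% of all genes. Both held for 5 members, Pkd1l1, Pkd1l2, Pkd1l3, Pkdrej and Pkd2l1, against 15.8% of all genes. With each array centred on its median, the members' counts were the same, and both held for 9.70% of genes. ATZ replicate 1 was the lowest ATZ array for 5 of 7, and the share of all genes was not counted for this. This description was made after the values were seen and carries no test.

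Markers of other cells of the testis moved between the same arrays. A whole testis mixes germ cells with somatic cells, and in such samples fewer cells of a type and less RNA per cell cannot be told apart. Protamine Prm1, packed with the DNA of elongating spermatids, read 13.75, 13.81 and 13.70 in ATZ-treated testes, against 13.71, 13.76 and 13.70 in control testes. The mean level of 12 round spermatid markers was 11.52 to 11.59 on ATZ arrays and 11.50 to 11.59 on control arrays. Lists of Leydig (7 measured markers of 9), Sertoli (10 of 12), peritubular (6 of 6), endothelial (7 of 7) and leukocyte (7 of 7) markers were all highest on control replicate 2, and so was the list of 10 spermatogonial markers, at 8.17, against 7.83 to 7.97 on ATZ arrays and 8.01 and 7.90 on control replicates 1 and 3. Leydig markers averaged 10.56 to 10.72 on ATZ arrays and 10.57 to 11.06 on control arrays, and leukocyte markers 7.55 to 7.84 and 7.54 to 8.02. On control replicate 2 Leydig markers stood 0.33 above their mean over the 6 arrays. There Pkd1 stood 0.25 above its mean, while Pkdrej stood 0.185 and Pkd1l2 0.28 below theirs. On control replicate 1 Leydig markers stood 0.125 above their mean and Pkd1 0.138 below its mean. On ATZ replicate 3 Leydig markers stood 0.171 below and Pkd1 0.082 above. On ATZ replicate 3 and control replicate 3, where endothelial markers stood 0.18 and 0.25 below their mean, Pkd1l3 stood 0.155 and 0.305 above its mean. Epididymal markers (8 of 9) averaged 5.67 to 5.76 on ATZ arrays and 5.52 to 5.79 on control arrays. Unlike the other somatic lists, they were lowest on control replicate 2 and highest on control replicate 3. The part of cell content in the members' values was not tested.

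**Figure D4:**
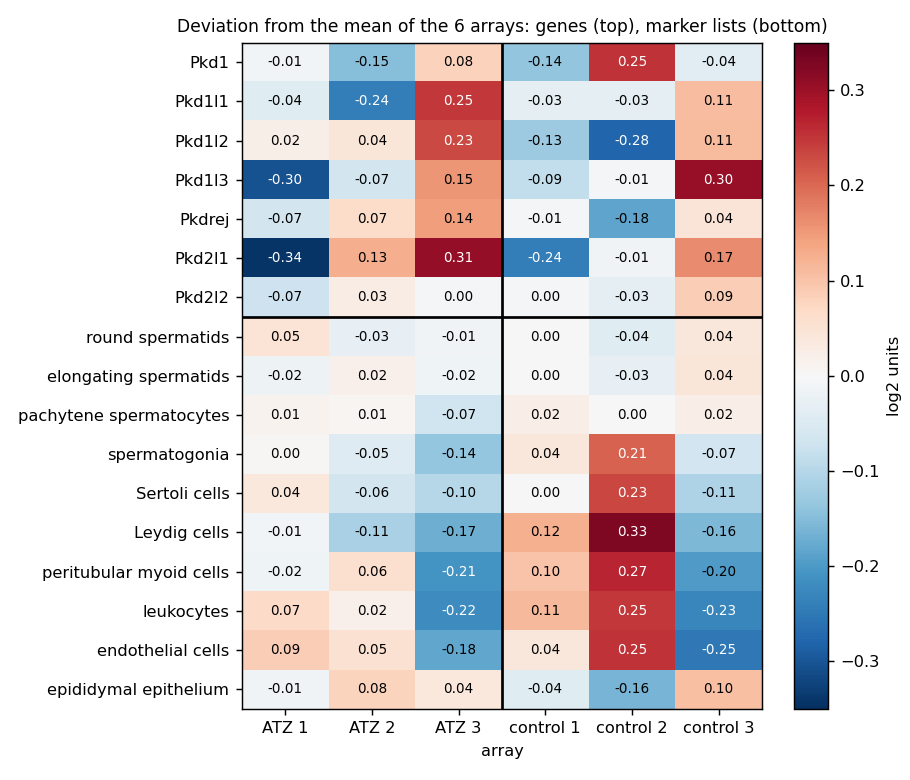
Deviation of each polycystin gene (top) and of the mean of each marker list (bottom) from its own mean over the 6 arrays, in log2 units, ATZ arrays left and control arrays right. The Sertoli, Leydig, peritubular, leukocyte, endothelial and spermatogonial lists are high on control 2 and low on ATZ 3 and control 3. The epididymal list is low on control 2 (-0.164) and stands at 0.036 on ATZ 3 and 0.105 on control 3. Most polycystin genes are high on ATZ 3 and control 3.

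Genes whose proteins process, carry or bind polycystins, or whose loss gives cystic kidneys, were also compared. Of 36 such genes 33 were measured, and with limma 0 rose and 0 fell. By sign, 12 were higher and 21 lower in ATZ-treated testes, with a median log2 change of -0.027. None of the 33 had an unadjusted p under 0.05. The smallest p was that of Pkdcc, a secreted protein kinase that is no polycystin despite its name. Pkdcc read 8.49, 8.32 and 8.63 in ATZ-treated testes, against 8.67, 8.91 and 8.59 in control testes, and the groups overlapped through control replicate 3. On the log2 scale Pkdcc differed by -0.24 (standard error 0.13, adjusted p = 0.998 from limma). Bbs4, a subunit of the complex that moves membrane proteins in cilia, had -0.14 (standard error 0.083), and Rabep1, an endosomal factor that helps polycystins reach the cilium, had -0.14 (standard error 0.082). For both, each ATZ array was below each control. A further gene without overlap, Alg8, an enzyme of protein glycosylation named after its values were seen, was higher on each ATZ array, with a log2 change of 0.060. These 3 of 33 genes stand beside the 6.91% of all genes without overlap.

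TRP channels outside the polycystin family gave a like picture. Of 25 genes 24 were measured, 13 higher and 11 lower in ATZ-treated testes, with a median log2 change of 0.027, and 0 rose and 0 fell with limma. Trpa1, an irritant sensor of sensory neurons, was the 1 gene of 24 at an unadjusted p under 0.05, a level that 2.39% of all genes passed. It read 5.41, 5.41 and 5.70 in ATZ-treated testes, against 5.13, 5.10 and 5.21 in control testes, all below the median of all probe sets. The groups did not overlap, and on the log2 scale Trpa1 differed by 0.36 (standard error 0.11, adjusted p = 0.998 from limma). Trpc5, a cation channel of neurons, had -0.15 (standard error 0.094), and Mcoln2, a channel of lysosomes and endosomes, had 0.16 (standard error 0.11), both with overlap between the groups.

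**Figure D5:**
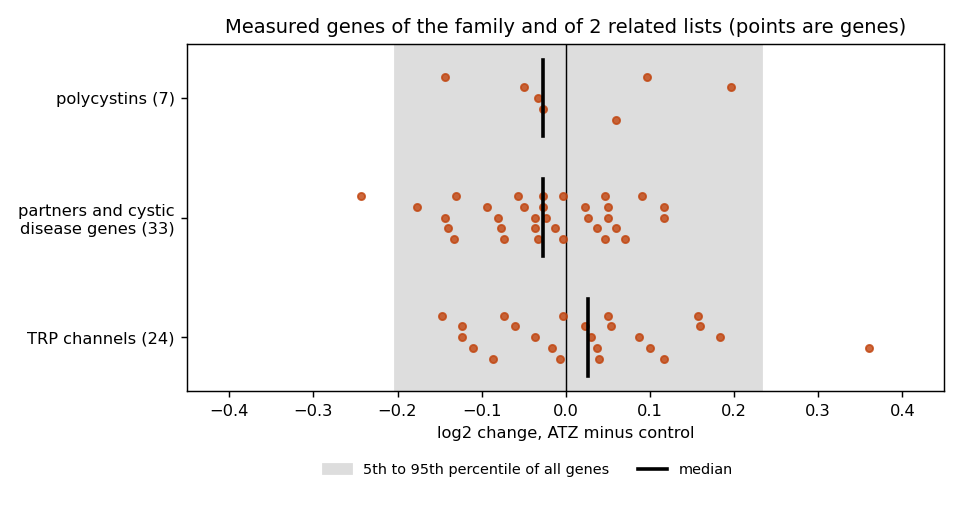
Log2 change (ATZ minus control) of the measured polycystins (7), polycystin partners and cystic disease genes (33) and other TRP channels (24), each point a gene, with list medians (black) and the range of all genes from the 5th to the 95th percentile (grey). The medians stand at -0.027, -0.027 and 0.027, and Trpa1 is the point farthest to the right.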

How the data were processed

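Whole testes of 3 ATZ-treated and 3 control samples were compared on Affymetrix mouse gene 2.0 st arrays. The deposited values are log2 intensities that the authors computed with the RMA method of Affymetrix Expression Console (versions not given in the sources used here), rounded to 2 decimals, so background correction, normalization between arrays and probe summary were done before. Genes were named through the platform annotation, and a gene was represented by the brightest, over the 6 arrays, of the probe sets that carry its symbol alone.

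Tests between groups used limma 3.58.1 under R 4.3.3 (lmFit, eBayes, two-sided) over all 41345 probe sets, with Benjamini-Hochberg adjustment over all of them and no filter. The test was tried on simulated data. "Rose" and "fell" stand for an adjusted p under 0.05. The study gives cutoffs of 1.5 for the fold change and 0.05 for p, without naming the test or an adjustment, and p was taken here as unadjusted. Named were all members, the listed probe set of Pkd1 and, from each pathway list, up to 3 genes with the smallest p. Of the marker lists (spermatogonia, pachytene spermatocytes, round and elongating spermatids, Sertoli, Leydig, peritubular, endothelial and epididymal cells, leukocytes and ciliated epithelium), single markers were named after their values were seen. The members and lists were chosen with earlier results of these data known. Alternatives were a replicate block, separate tests per probe set, a variance trend with robust settings, array weights, quantile normalization again, centred arrays, brighter or singly named probe sets alone, the mean of a gene's probe sets, linear means and each array left out. Promoters came from a RefSeq table (GRCm38.p6). Python 3.11.15 served for tables and figures. Precision is limited by the number of arrays.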

Additional observations from a re-analysis of the deposited data

How the results depend on the processing

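Of 110 combinations of a member gene and an alternative, 103 gave an adjusted p, 0 of them under 0.05 (the smallest was 0.834), and 7 turned the sign, each by leaving out 1 array. Without single arrays the log2 change ranged from -0.13 to 0.063 for Pkd1, -0.16 to 0.088 for Pkd1l1, -0.078 to 0.25 for Pkd2l1 and -0.058 to 0.0017 for Pkd2l2, while it kept its sign for Pkd1l2 (0.11 to 0.30), Pkd1l3 (-0.26 to -0.027) and Pkdrej (0.028 to 0.15). The median over the members ranged from -0.078 to 0.028 and was -0.057 with centred arrays. The number of members at an unadjusted p under 0.05 ranged from 0 to 1 (Pkd1l2, without control replicate 3). In that setting 914 of all 22180 genes passed this level, against 530 with all arrays. The number of members without overlap also ranged from 0 to 1 (Pkdrej without ATZ replicate 1, Pkd1l1 without ATZ replicate 3, Pkd1l2 without control replicate 3). Groups of fewer arrays overlap less often. The share of all genes without overlap was not counted with an array left out, so these cases have no background. The listed probe set of Pkd1 stayed below 0, from -0.79 without ATZ replicate 2 to -0.35 without ATZ replicate 1. Its unadjusted p from limma, 0.0371, was 0.0543 with the replicate block and 0.0936 when each probe set was tested separately. It was 0.0264 with the variance trend, 0.0236 with array weights, 0.0290 with quantile normalization again and 0.0276 with centred arrays. With array weights, quantile normalization again and centred arrays it met both cutoffs of the study. The adjusted p from limma was at least 0.998 in each of these settings.

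With centred arrays the median was -0.057 for partner genes and -0.0033 for TRP channels, and among brighter probe sets alone -0.037 for TRP channels, with 0 of these at an unadjusted p under 0.05. Without single arrays these medians ranged from -0.035 to 0.012 and from -0.0067 to 0.042. Separate tests per probe set gave 2 of 33 partner genes at an unadjusted p under 0.05, beside 742 of all 22180 genes in that setting. Over all genes, 530 passed that level, 253 among brighter probe sets, 798 among singly named ones and 381 to 914 (the highest without control replicate 3) without single arrays. The variance trend, brighter probe sets and singly named ones each gave 1 gene at an adjusted p under 0.05, Speer4cos, which is no member. The cause of these shifts was not tested.

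For each array, the deviation of every gene from the mean of its group was taken. Between arrays with the same replicate number these deviations correlated over genes at 0.051, 0.14 and 0.41. Those of ATZ replicate 1 correlated best with control replicate 2 (0.23), so the numbers were not taken as pairs. The replicate block gave 780 genes at an unadjusted p under 0.05 and 0 members, with a standard error of 0.085 for Pkd1l3 and 0.096 for Pkd2l1, and changed no call.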

Other observations

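The marker lists not described above gave these values. Of 10 spermatogonial markers, 1 was higher and 9 were lower in ATZ-treated testes, with a median log2 change of -0.12. Of 10 measured markers of pachytene spermatocytes, 2 were higher and 8 lower, with a median of -0.033. Markers of elongating spermatids (10 measured) had a median of -0.0033 and those of motile ciliated epithelium (8 measured) of -0.030. No gene of these lists had an adjusted or an unadjusted p under 0.05 with limma. Of the somatic lists, 7 of 7 Leydig, 8 of 10 Sertoli, 4 of 6 peritubular, 6 of 7 leukocyte and 4 of 7 endothelial markers were lower in ATZ-treated testes. Over all genes 50.8% were lower, and all of these lists were highest on control replicate 2. Their median log2 changes were -0.12 (Leydig), -0.093 (Sertoli), -0.057 (peritubular), -0.10 (leukocytes) and -0.047 (endothelial), and those of round spermatid and epididymal markers were 0.0050 and 0.028. None of these genes had an adjusted p under 0.05 with limma. At an unadjusted p under 0.05 there were 1 Leydig marker, Star, which carries cholesterol into mitochondria (log2 change -0.64), and 1 peritubular marker, the transcription factor Tbx18 (-0.62). For both, every ATZ array was below every control. Over all genes, 2.39% passed that level and 6.91% had groups without overlap. The study lists Star and Tbx18 among genes differing between these same arrays, so their values are a description.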
